A study of Mus musculus with 9 samples.

Results

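VEGF Trap was compared with its control protein, Fc, in mouse eyes with laser-induced choroidal neovascularization, a lesion in which vessels grow from the choroid through a ruptured Bruch membrane. The comparison used the 6 libraries whose titles name VEGF Trap (3) or Fc (3), of 9 in the series. The other 3, from eyes given the Tie2-activating antibody ABTAA, entered the comparison only through the filter, the scaling and the estimate of the spread. With the 6 libraries alone, 13804 genes passed the filter. All mice were males of 8 weeks, every eye received 4 burns, and each group was given 5 µg of its protein into the vitreous. Laser capture then took the lesion together with a margin of the surrounding pigment epithelium (RPE) and choroid. Their RNA was counted by QuantSeq, a library type that reads the 3 prime ends of transcripts. Of 24421 gene symbols in the count tables, 14054 passed the filter on low counts and are the members described here. The sources used here do not give the strain, the time after the burn or the number of eyes in a library. Libraries are not tied to animals by any label, so each p measures the spread between these libraries, which may be technical. The column headings of the Fc tables name a knockout control, while the titles name Fc, and the titles were followed.

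VEGF-A is a secreted growth factor that binds the receptors Flt1 and Kdr on endothelial cells and drives sprouting, division and leakiness of vessels. VEGF Trap is a soluble decoy made of receptor domains joined to the Fc part of an antibody, and it binds VEGF-A, VEGF-B and placental growth factor. Because it acts on proteins, no transcript serves as a check of the treatment label. In the choroid, VEGF-A comes largely from the pigment epithelium and maintains the fenestrated capillaries beneath it.

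Total counts ran from 7346988 to 14439835 per library, and 15968 to 16996 symbols had a count. A floor of 3 counts was worth 0.208 to 0.408 CPM (counts scaled to a library size of 1e+06), which covers counting error only. The ribosomal precursor Rn45s took 10.1% to 11.8% of counts in Fc and 12.9% to 15.8% in VEGF Trap. The labelled tissue was present in each library: Rpe65, the retinoid isomerase of pigment epithelium, stood at 130 to 259 CPM, and the endothelial adhesion molecule Pecam1 at 244 to 296 CPM. Fc 1 stood apart in the list of lymphocyte and neutrophil markers (518 CPM summed, against 56.6 to 144 in the other 5), and VEGF Trap 1 in the lens list (150 against 16.6 to 48.1).

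Few genes passed the test of VEGF Trap against Fc. With 3 libraries in each group, a gene that did not pass may still have changed. By edgeR's quasi-likelihood test at an adjusted p below 0.05, 144 of 14054 genes (1.02%) passed, 72 higher (0.512%) and 72 lower (0.512%). The median absolute log2 fold change of the 144 genes was 0.69, and the median log2 fold change over all genes tested was 0.001. The 3 libraries of one group lay wholly above those of the other for 1461 genes higher in VEGF Trap (10.4%) and 1471 lower (10.5%), among them all 144 called genes. An unadjusted p below 0.05 was found for 1109 higher (7.89%) and 1053 lower genes (7.49%). With library totals in place of TMM scaling, 39 genes were higher and 182 lower, and the median of all genes moved to -0.08. In bulk tissue, fewer cells of a type and less RNA per cell cannot be told apart, which holds for each result below. The shares over all genes given here are the background for every gene list below. The lists were chosen with earlier results of these data known. A count of calls set beside the background therefore describes a list and does not test it.

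**Figure D1:**
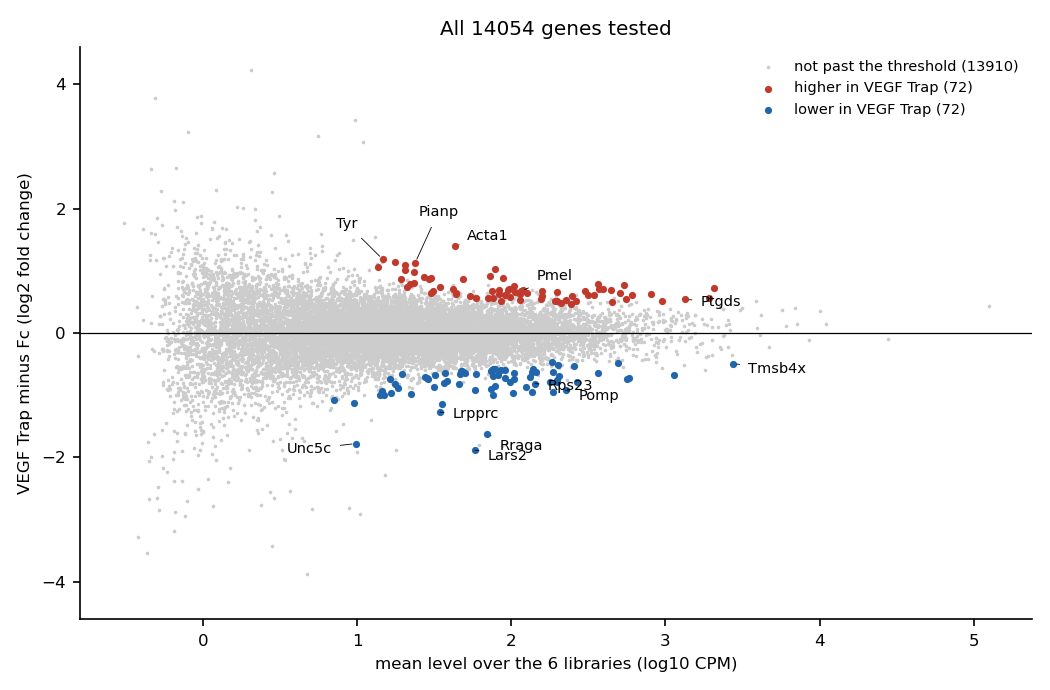
Each point is one of 14054 genes, with the mean level over the 6 libraries in log10 CPM on the horizontal axis and the log2 fold change of VEGF Trap against Fc on the vertical axis. The 72 higher (red) and 72 lower genes (blue) mostly lie within 1 log2 unit of 0, and Rraga, Lars2 and Unc5c stand lowest among those called.

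Fewer genes passed when a library was left out, in fits with fewer samples. Leaving out Fc 1, Fc 2 or Fc 3 gave 18, 7 and 32 called genes, and leaving out VEGF Trap 1, 2 or 3 gave 62, 60 and 25. Of the 144 genes, 68 passed in 0 of these 6 fits and 5 passed in all 6, namely Rraga, Pomp, Mkks, Gm5148 and D17H6S56E-5, each lower in VEGF Trap. The skeletal muscle markers moved with the groups, at 168 to 254 CPM summed in Fc and 312 to 527 in VEGF Trap. The ABTAA libraries, which also enter the fit, stood above Fc as well, at a sum of 325, 672 and 551 CPM. With the log2 of that sum as a covariate, 1 gene passed (Nmral1) and 1536 had an unadjusted p below 0.05. The 144 genes then kept their direction in 144 cases, with a median absolute log2 fold change of 0.72 and a median SE of 0.20, against 0.14 without the covariate. The median GC content over the transcript was 55.6% in the genes called higher, 48.7% in those called lower and 49.7% in all genes tested. Removing each library's trend on this GC content left 99 calls, 40 higher and 59 lower, and removing the trend on GC content of the last 200 bases left 148. Of the genes named below, Acta1, Akt1s1, C4b, Nfix, Psmb7, Ptgds, Tapbp, Timp2 and Tnnt3 lost their calls under both corrections. C1rb did so under the second alone, and Atp2a1, Cox6b1, Crocc, Jund, Lig4, Mgll, Ndufb3, Prrt2, Slc4a3, Snhg1 and Tmsb4x under the first alone.

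**Figure D2:**
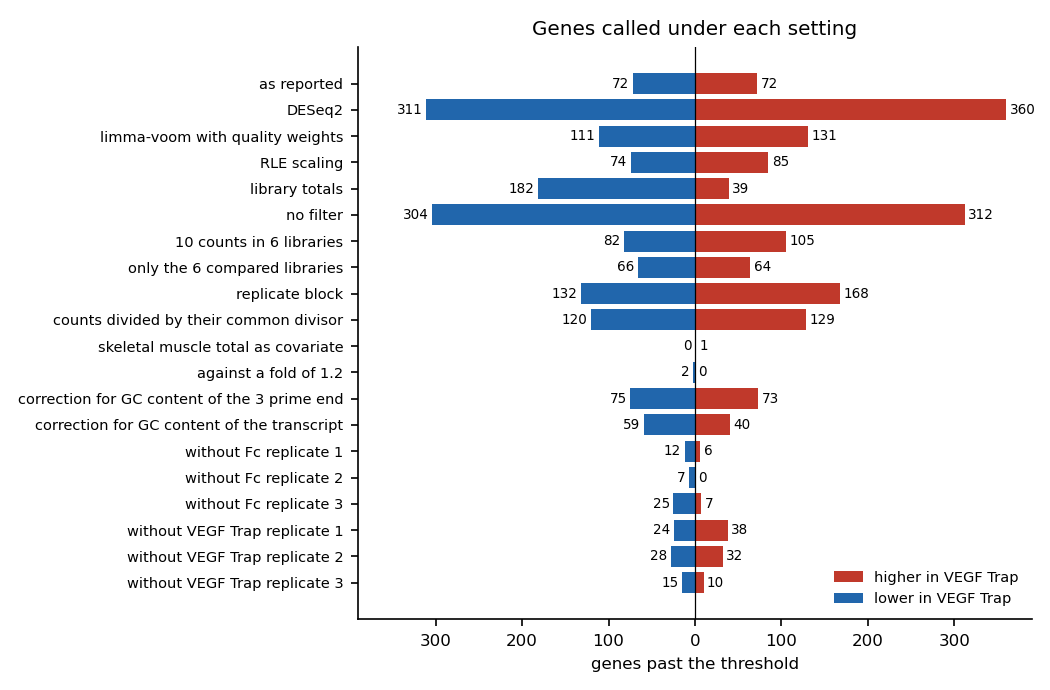
Bars give the number of genes past the threshold in each direction (higher in VEGF Trap to the right, lower to the left) as reported and under each other setting. The count runs from 1, where the muscle total is a covariate, to 671 with DESeq2.

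The transcripts of the VEGF system itself stood at similar levels in both groups. Of 10 measured ligands and receptors, 0 passed the test (background 0.512% in each direction), 1 had an unadjusted p below 0.05, and the median log2 fold change was 0.02. Vegfa, the main ligand, stood at 279, 362 and 261 CPM in Fc and at 312, 291 and 292 CPM in VEGF Trap. The VEGF Trap values lay inside the Fc range, and the log2 fold change was -0.01 with a 95% interval from -0.31 to 0.28. Placental growth factor, Pgf, was the highest of the list, with 55.7, 46.8 and 50.6 CPM in Fc and 55.4, 82.1 and 69.6 CPM in VEGF Trap (log2 0.44 ± 0.15 SE, adjusted p = 0.152, edgeR), so VEGF Trap 1 matched Fc. Vegfb stood at 0.25 ± 0.18 and the lymphatic ligand Vegfc at 0.35 ± 0.36. For the signalling receptor Kdr the values were 53.8, 47.3 and 46.4 CPM in Fc and 42.2, 46.7 and 35.4 CPM in VEGF Trap, which overlap (log2 -0.24, interval -0.54 to 0.06). The high-affinity receptor Flt1 (log2 0.06, interval -0.25 to 0.37) and the co-receptor Nrp1 (-0.08, interval -0.35 to 0.18) overlapped as well. Flt1 turned to -0.02 with library totals, so its sign carries no weight. The lymphatic receptor Flt4 was the lowest of the list at -0.33 ± 0.26.

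Genes that VEGF induces in endothelial cells gave 0 calls among 17 measured by edgeR (1 higher and 2 lower at an unadjusted p below 0.05, 1 call by DESeq2), with a median of -0.05 (0.001 over all genes). The tip cell marker Esm1 stood at 14.3, 18.2 and 15.4 CPM in Fc and at 17.2, 11.6 and 15 CPM in VEGF Trap. Its values overlapped, and the interval of the log2 fold change, -0.53 to 0.26, leaves out a fall by 1 log2 unit. The same held for the apelin gene Apln (-0.05, interval -0.41 to 0.32), whereas Dll4, a Notch ligand of tip cells at 1.6 to 3.65 CPM, was measured too coarsely to say so (0.36, interval -0.56 to 1.28). In this list the early response gene Egr3 was highest at 0.64 ± 0.20 and Nr4a2 lowest at -0.50 ± 0.22 (adjusted p = 0.122 and 0.283).

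Tip cell and sprouting genes gave 0 calls by edgeR. Of 18 measured, 13 were negative, 6 had an unadjusted p below 0.05 on the lower side (background 7.49%) and 2 on the higher side (7.89%), and the median was -0.11. Kcne3, a potassium channel subunit found in tip cells, missed the threshold narrowly, with 35, 27.6 and 13.7 CPM in Fc and 8.29, 5.85 and 0.693 CPM in VEGF Trap (log2 -2.28 ± 0.52, adjusted p = 0.0504). Its groups did not overlap, but its level varied widely within each group, from 13.7 to 35 CPM in Fc and 0.693 to 8.29 CPM in VEGF Trap. The adhesion molecule Mcam, also a pericyte marker, stood at 109, 71.5 and 93.0 CPM in Fc and 68.1, 54.9 and 62.0 CPM in VEGF Trap (-0.56 ± 0.15, adjusted p = 0.0779). The type IV collagen chains Col4a1 (-0.33 ± 0.12) and Col4a2 (-0.39 ± 0.15) were on the same side, while the calcitonin receptor partner Ramp3 (0.45 ± 0.15) and the pericyte-recruiting factor Pdgfb (0.42 ± 0.16) were on the other. Library totals and no filter each called 2 lower members of this list, DESeq2, RLE scaling, 10 counts in 6 libraries, the 6 libraries alone and divided counts each called 1, and limma-voom and both GC corrections called 0.

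No marker of the endothelium passed the test in either direction. Of 25 measured, 0 passed, 5 had an unadjusted p below 0.05 and all 5 were higher (background 7.89%), and the median was 0.12. Claudin 5, Cldn5, of endothelial tight junctions stood at 28.9, 27.2 and 24.3 CPM in Fc and 42.1, 38.9 and 40.2 CPM in VEGF Trap (log2 0.59 ± 0.14, adjusted p = 0.0509). The TGF-beta co-receptor endoglin, Eng, stood at 304, 231 and 254 CPM against 390, 348 and 368 CPM (0.49 ± 0.12, adjusted p = 0.0579). Plvap, which forms the diaphragms of fenestrae, stood at 82.6, 64.5 and 63.8 CPM against 95.7, 96.1 and 84.8 CPM (0.39 ± 0.13, adjusted p = 0.139). None of these 3 genes overlapped between the groups, yet none passed. Of the list, 6 members (24%) lay wholly above Fc and 0 wholly below (background 10.4% and 10.5%). DESeq2 called 3 members higher, and limma-voom, no filter, 10 counts in 6 libraries and the replicate block each called 2. RLE scaling and divided counts each called 1. Library totals, the 6 libraries alone, both GC corrections, the muscle covariate, a fold of 1.2 and each fit without a library called 0. Pecam1 (0.07, interval -0.15 to 0.29) and Cdh5, the cadherin of endothelial junctions (-0.17, interval -0.50 to 0.16), overlapped. The list summed to 2432 to 3091 CPM in Fc and 2751 to 3125 CPM in VEGF Trap. Of 9 angiopoietin and Tie genes 0 passed, and 0 had an unadjusted p below 0.05. Angpt2 stood at -0.20 ± 0.23 and Tek, the gene of Tie2, at 0.06 ± 0.24, which turned to -0.01 with library totals. The 15 Notch pathway genes also gave 0 at the unadjusted threshold.

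Netrins, Slits and their receptors guide axons and vessel sprouts. Of 17 measured, Unc5c fell and 16 did not pass (background 0.512%), with a median of 0.18. Unc5c, a netrin receptor on chromosome 3 (141465216 to 141834924, mm10), stood at 18.7, 14.3 and 12.8 CPM in Fc and 4.15, 5.16 and 3.88 CPM in VEGF Trap. The groups lay far apart, at 0.29 times the Fc level (log2 -1.78 ± 0.32, adjusted p = 0.0263, edgeR). The call held without Fc 3 or VEGF Trap 2 and ended without each of the other 4 libraries (log2 -1.92 to -1.61). Every count of Unc5c was even, as was each count of many genes in these tables, which can arise if reads are counted repeatedly. Slit2 stood at 47.1, 39.4 and 41.2 CPM in Fc and 21.2, 34.3 and 29.4 CPM in VEGF Trap (-0.59 ± 0.16, adjusted p = 0.0858). Netrin 1, Ntn1, and the netrin receptor neogenin, Neo1, lay on the higher side (0.63 ± 0.22 and 0.40 ± 0.11, adjusted p = 0.158 and 0.0978). Their ranges did not overlap.

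In the basement membrane, the sheet of collagen IV, laminin and proteoglycan under endothelium and pigment epithelium, 1 of 21 measured genes rose and 1 fell (background 0.512% in each direction). Npnt encodes nephronectin, a matrix ligand of an integrin. It rose from 61.7, 64.9 and 59.9 CPM in Fc to 104, 114 and 128 CPM in VEGF Trap (log2 0.89 ± 0.15, adjusted p = 0.0188, edgeR). Lamb1, the laminin beta 1 chain, fell from 89.3, 89.5 and 87.1 CPM to 58.6, 60.6 and 55.0 CPM (-0.61 ± 0.11, adjusted p = 0.0322). Both had narrow groups that lay clear of each other. Npnt held without VEGF Trap 1 or 2 only, and Lamb1 in 0 of the 6 fits, at log2 values from -0.64 to -0.57. Perlecan, Hspg2, the heparan sulfate proteoglycan of the same sheet, stood at 273, 184 and 170 CPM against 319, 307 and 326 CPM (0.60 ± 0.16, adjusted p = 0.0689). Every count of Npnt was a multiple of 5. Fibrosis and interstitial matrix genes gave 0 calls among 20 by edgeR (2 higher and 3 lower at an unadjusted p below 0.05, 1 lower call by DESeq2), and their lowest was the matricellular factor Ctgf, with 2653, 2146 and 1690 CPM in Fc and 1272, 1595 and 1441 CPM in VEGF Trap (-0.59 ± 0.15, adjusted p = 0.0607). Outside these lists Plau, the urokinase that activates plasmin, was at 13.6 ± 1.5 CPM in Fc and rose to 25 ± 3.01 CPM (SD, n = 3 in each group), and the metalloproteinase inhibitor Timp2 rose from 1553 ± 46.3 to 2306 ± 282 CPM. Plau passed without VEGF Trap 1 only, and so did Timp2, which also lost its call with library totals and either GC correction.

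**Figure D3:**
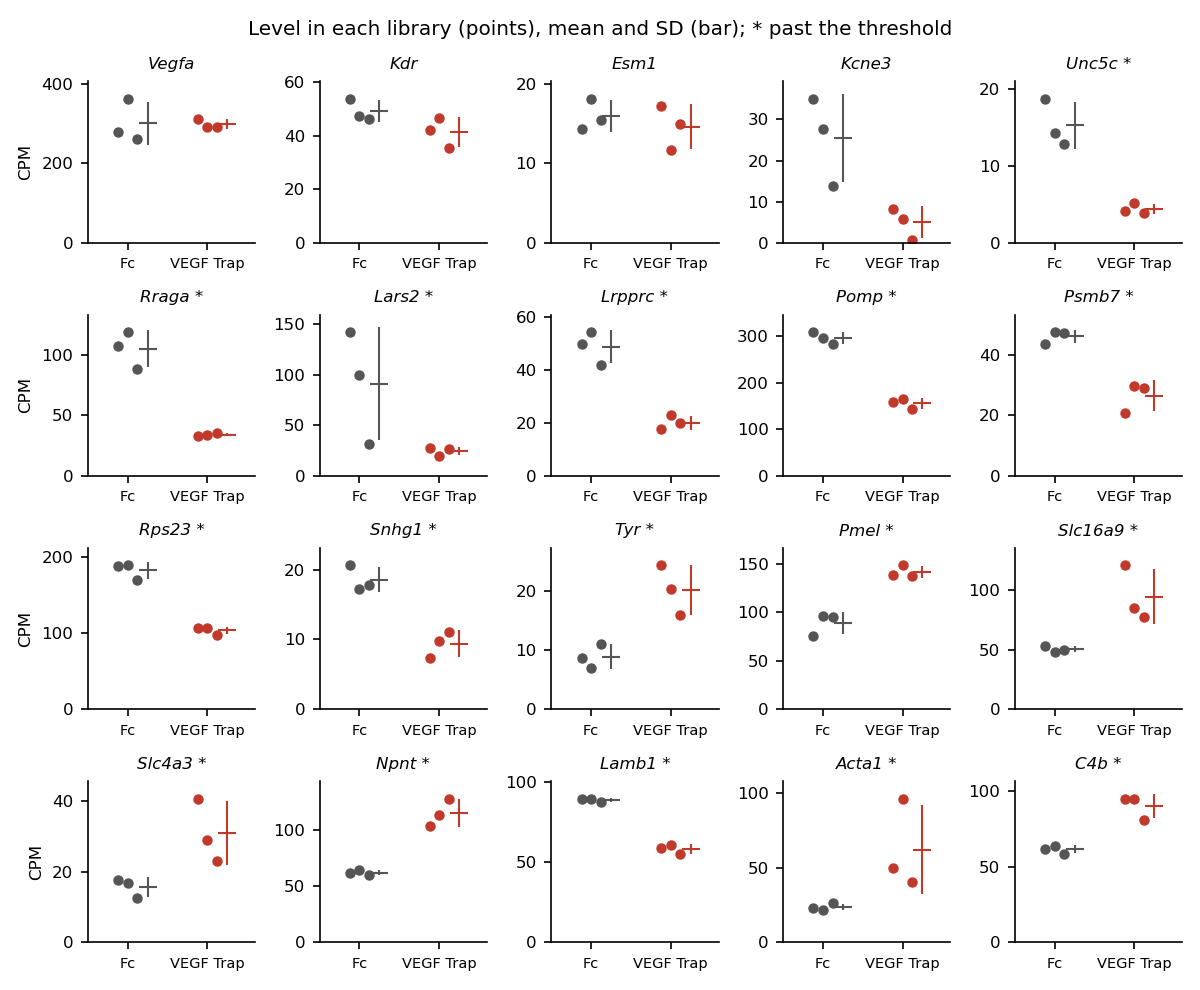
Points are the CPM of single libraries of Fc (grey) and VEGF Trap (red) for 20 genes, with the mean and SD beside them. In genes marked with an asterisk the 2 groups do not overlap, as in Rraga at 88.4 to 119 against 32.8 to 35.4 CPM, while Vegfa and Esm1 overlap.

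Rraga had the lowest p among named genes. It encodes RagA, one of the Rag GTPases that bring the growth kinase complex mTORC1 to the lysosome when amino acids are plentiful, and lies on chromosome 4 (86575668 to 86577285). Its level was 107, 119 and 88.4 CPM in Fc and 32.8, 33.5 and 35.4 CPM in VEGF Trap. The VEGF Trap libraries were nearly equal and stood at 0.32 times the Fc level (log2 -1.63 ± 0.20, adjusted p = 0.0058, edgeR). The call held in all 6 fits with a library left out (-1.74 to -1.53). Of 23 measured genes of the Rag, Ragulator and mTORC1 list, Rraga fell, Akt1s1 rose and 21 did not pass (median -0.05, background 0.512% in each direction). Akt1s1, the mTORC1 inhibitor PRAS40, stood at 83.9, 82.2 and 101 CPM in Fc and at 139, 122 and 149 CPM in VEGF Trap (0.62 ± 0.12, adjusted p = 0.0322), and among the 6 fits passed without Fc 3 or VEGF Trap 2. Both GC corrections ended its call (0.45 and 0.42). The partners of RagA overlapped between groups, Rragc at -0.12 (interval -0.48 to 0.24) and Rragd at 0.14 (-0.23 to 0.51). Rragb, the closest relative of Rraga, was not among the genes tested. The Ragulator subunit Lamtor2 stood at 0.52 ± 0.14 (adjusted p = 0.0698).

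In the respiratory chain, 3 nuclear genes fell. Of 42 measured genes of respiratory complex I, Foxred1 and Ndufb3 fell and 0 rose. Of 38 genes of complexes II to V, Cox6b1 fell and 0 rose (background 0.512% lower). Foxred1, an assembly factor of complex I, fell from 19.6, 25.5 and 20.4 CPM to 12.4, 10.9 and 9.98 CPM (log2 -0.97 ± 0.17, adjusted p = 0.0267, edgeR). Ndufb3, a subunit of its membrane arm, fell from 86.9, 99.7 and 93.8 CPM to 59.3, 62.8 and 51.6 CPM (-0.69 ± 0.14, adjusted p = 0.0333), and the cytochrome oxidase subunit Cox6b1 from 91.8, 123 and 112 CPM to 69.5, 75.2 and 72.6 CPM (-0.59 ± 0.13, adjusted p = 0.046). Their groups were clear of each other. The lists as a whole moved little, with medians of -0.05 and -0.07, and their sums overlapped (2282 to 2435 against 2222 to 2388 CPM for complex I). Foxred1 held without VEGF Trap 1 alone. Ndufb3 and Cox6b1 held in 0 of the 6 fits, and Foxred1 also lost its call when counts, all multiples of 3, were divided by their common divisor.

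Lrpprc stabilizes mitochondrial mRNAs together with Slirp. It stood at 49.9, 54.3 and 42.0 CPM in Fc and at 17.6, 22.9 and 20 CPM in VEGF Trap, 0.41 times the Fc level (log2 -1.27 ± 0.19, adjusted p = 0.0124, edgeR). Its call ended only without Fc 2 (log2 -1.19, adjusted p = 0.085). Slirp stood at 31.8, 41.0 and 40.4 CPM against 30.7, 30.3 and 25.2 CPM (-0.39 ± 0.14, adjusted p = 0.198), which did not pass. In the list of mitochondrial RNA stability and translation, 19 of 22 members were negative (median -0.18). Lrpprc fell and Gfm2 rose (background 0.512% in each direction). The sum of the list, which Gfm2 weighs on most, was 765 to 807 CPM in Fc and 818 to 971 CPM in VEGF Trap. Gfm2, which recycles mitochondrial ribosomes, stood at 244, 253 and 305 CPM against 512, 368 and 503 CPM (0.78 ± 0.13, adjusted p = 0.0188). It overlaps exons of Nsa2 on the other strand, which stood at -0.28 ± 0.12 (adjusted p = 0.286, edgeR). The strand setting of the counting is not given in the sources used here, so the reads of this pair cannot be told apart.

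Lars2, the mitochondrial leucyl-tRNA synthetase, had the largest fall of the 144 called genes and the most uneven control. It stood at 142, 99.6 and 31.5 CPM in Fc and at 27.7, 19.9 and 26.6 CPM in VEGF Trap (log2 -1.88 ± 0.41, adjusted p = 0.0428, edgeR). Fc 3 lay only just above VEGF Trap 1. Without Fc 3 the log2 fold change was -2.30 (adjusted p = 0.008), while omission of any other compared library ended the call, with -1.41 without Fc 1, and limma-voom did not call it. Rn45s, the ribosomal precursor, lay on the higher side in VEGF Trap without passing. It stood at 117653, 106268 and 94615 CPM in Fc and 167531, 133393 and 131485 CPM in VEGF Trap (0.44 ± 0.11, adjusted p = 0.0577, edgeR). Within Fc, Lars2 and Rn45s both fell from Fc 1 to Fc 3. Whether ribosomal RNA content has a part in the value of Lars2 was not tested. The other 18 measured synthetase genes did not pass, and the median of the list was -0.15.

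Among genes of protein synthesis and breakdown, single members fell while the lists stayed near the centre. Of 79 cytosolic ribosomal protein genes, Rps23 and Rps19 fell and 0 rose (background 0.512% in each direction). The list had 52 negative members, 20 members whose VEGF Trap libraries lay wholly below Fc against 6 wholly above (25.3% and 7.59%, background 10.5% and 10.4%), and a median of -0.10. Rps23 fell from 187, 189 and 170 CPM to 106, 106 and 97.7 CPM (log2 -0.81 ± 0.11, adjusted p = 0.00724, edgeR) and lost its call only without Fc 2 (adjusted p = 0.056). Rps19 fell from 135, 131 and 112 CPM to 75.4, 86.0 and 79.9 CPM (-0.65 ± 0.13, adjusted p = 0.0367) and held in 0 of the 6 fits. Rpl32 stood on the higher side (0.47 ± 0.11, adjusted p = 0.0509). The list summed to 23386 to 24164 CPM in Fc and 22952 to 23514 CPM in VEGF Trap.

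Gm5148, one of the 5 genes that held in all 6 fits with a library left out, may not be separate from Rps23. Its exons on chromosome 3 (37714190 to 37724490) cover Rps23-ps1, a pseudogene of Rps23 on the other strand, and its level followed that of Rps23 closely, at 187, 180 and 168 CPM in Fc and 90.0, 98.2 and 90.1 CPM in VEGF Trap (log2 -0.94 ± 0.12, adjusted p = 0.0058, edgeR). C330021F23Rik, named after its values were seen, covers Rps23-ps2 and stood at 126, 128 and 117 CPM against 69.6, 77.2 and 68.1 CPM (-0.78 ± 0.12, adjusted p = 0.0119). The 3 calls therefore may rest on reads of one family, and they are reported as uncertain.

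The proteasome degrades tagged proteins in the cytosol. Of 36 measured proteasome genes, Pomp and Psmb7 fell and 0 rose, and 26 members were negative (median -0.10). The background of lower calls was 0.512%, and 9 members (25%) lay wholly below Fc, against 10.5% of all genes. Pomp, the chaperone that matures the catalytic core, stood at 308, 295 and 282 CPM in Fc and at 159, 165 and 143 CPM in VEGF Trap (log2 -0.92 ± 0.12, adjusted p = 0.00724, edgeR). It lies on chromosome 5 (147860461 to 147876456) and held in all 6 fits. The catalytic subunit Psmb7 fell from 43.6, 47.4 and 47.2 CPM to 20.6, 29.7 and 29.1 CPM (-0.80 ± 0.18, adjusted p = 0.046) and held in 0 fits. Other members stood on the higher side, Psmc1 at 0.54 ± 0.13 (adjusted p = 0.0509) and Psmb3 at 0.66 ± 0.19 (adjusted p = 0.097).

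Hosts of small nucleolar RNAs carry guides for ribosomal RNA modification in their introns. Of 16 measured, Snhg1 and D17H6S56E-5 fell and 14 did not pass (median -0.17). The background of lower calls was 0.512%, here and for the lists that follow. D17H6S56E-5 stood at 163, 126 and 120 CPM in Fc and 65.2, 70.4 and 74.2 CPM in VEGF Trap (log2 -0.96 ± 0.14, adjusted p = 0.0119, edgeR), and Snhg1 at 20.6, 17.3 and 17.8 CPM against 7.38, 9.75 and 11.1 CPM (-0.99 ± 0.20, adjusted p = 0.0323). The first held in all 6 fits and the second in 0 of them. Exosc9 of the RNA exosome, which trims and degrades RNA, was the 1 gene of 15 in its list that fell (18.3, 23.9 and 16.9 CPM against 10.1, 8.50 and 11.4 CPM, -0.99 ± 0.20). It held in 0 fits, and it overlaps Ccna2 on the other strand, a cyclin at -0.73 ± 0.18 (adjusted p = 0.0607). Eif2s3x, the gamma subunit of the initiation factor eIF2, was the 1 of 16 in its list (27.9, 29.5 and 30.6 CPM against 12.9, 16.3 and 15.7 CPM, -0.98 ± 0.16, adjusted p = 0.0188). It held without VEGF Trap 1 or 2 only. The alpha and beta subunits, Eif2s1 (-0.50 ± 0.18) and Eif2s2 (-0.30 ± 0.10), lay on the same side without passing. Lig4, the ligase of end joining, fell from 10.8, 12.9 and 15.2 CPM to 5.72, 6.20 and 5.82 CPM (-1.13 ± 0.25, adjusted p = 0.046), as 1 of 10 in its list, and held in 0 fits.

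Other genes named by the largest changes or the highest levels fell as follows. Mkks, a chaperonin-like protein needed for primary cilia, stood at 67.0, 80.1 and 81.7 CPM in Fc and at 41.4, 39.2 and 40.9 CPM in VEGF Trap (log2 -0.92 ± 0.12, adjusted p = 0.00724, edgeR) and held in all 6 fits. Its exons overlap Slx4ip on the other strand. Usf2, a helix-loop-helix transcription factor, fell from 272, 259 and 207 CPM to 116, 142 and 124 CPM (-0.95 ± 0.14, adjusted p = 0.0124) and lost its call only without Fc 2. Picalm, which helps to assemble clathrin coats, fell from 1447, 1463 and 1297 CPM to 796, 902 and 939 CPM (-0.67 ± 0.11, adjusted p = 0.0188), with its call lost without Fc 1 or Fc 2. Sec61a1, the channel of the endoplasmic reticulum, fell by 0.73 on the log2 scale. The actin-binding proteins Lima1 and Tmsb4x fell by 0.74 and 0.49, Spag7 fell by 1 and C1rb by 0.92. These last 5 genes passed in 2 or fewer of the 6 fits. C1rb has a near-identical copy, C1ra, at -0.26 ± 0.16, so its reads may be split.

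The genes outside the lists with the largest rises stood at low levels. Nmral1, an NADPH-sensing protein, rose from 9.90, 12.5 and 10.2 CPM to 25.9, 20.6 and 25.8 CPM (log2 1.15 ± 0.20, adjusted p = 0.0228, edgeR), and was the gene that passed with the muscle covariate. Pianp rose from 16.4, 10.4 and 17.6 CPM to 30.8, 28.2 and 38.7 CPM (1.13 ± 0.19, adjusted p = 0.0188) and held in 4 of 6 fits, ending without Fc 2 or VEGF Trap 3. The membrane-bending protein Pacsin1 rose by 1.10, the ciliary rootlet protein Crocc by 1.01, Tmem53 by 0.90, the mitochondrial protein Nlrx1 by 0.88 and the synaptic protein Prrt2 by 0.87. Pacsin1 passed in 3 of the 6 fits, Tmem53 in 2, Crocc and Nlrx1 in 1 and Prrt2 in 0, and Pacsin1 and Tmem53 lost their calls when counts were divided by their common divisor. Among abundant genes, the monoacylglycerol lipase Mgll rose from 1556, 1636 and 1490 CPM to 3468, 2279 and 1976 CPM (0.72 ± 0.15, adjusted p = 0.0428), and VEGF Trap 1 stood far above the other libraries. Without it the value was 0.45 (adjusted p = 0.058), and the call held without VEGF Trap 3 alone. The prostaglandin D synthase Ptgds was at 1089 ± 77.1 CPM in Fc and rose to 1584 ± 60.5 CPM (SD, n = 3 in each group), the regulator Lmo4 from 628 ± 42.8 to 977 ± 77.4 CPM, the transcription factor Nfix from 783 ± 49.2 to 1113 ± 110 CPM and the peptide-loading protein Tapbp from 482 ± 44.7 to 739 ± 89.9 CPM. Lmo4 and Tapbp passed without VEGF Trap 2 alone, and Ptgds and Nfix in 0 fits.

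Melanin is made in melanosomes, which both pigment epithelium and choroidal melanocytes hold. Of 16 measured melanin and melanosome genes, Tyr and Pmel rose and 0 fell (background 0.512% higher). The list had 13 positive members, 6 of them with VEGF Trap libraries wholly above Fc (37.5%, background 10.4%), and a median of 0.27. Tyr, the tyrosinase that starts melanin synthesis, stood at 8.69, 6.96 and 11.1 CPM in Fc and 24.5, 20.5 and 15.9 CPM in VEGF Trap (log2 1.19 ± 0.27, adjusted p = 0.0478, edgeR). Pmel, the fibril protein on which melanin settles, stood at 75.6, 96.6 and 94.8 CPM against 139, 149 and 138 CPM (0.67 ± 0.13, adjusted p = 0.0322). Pmel overlaps Dgka on the other strand, and the ends of both genes are alike, so its reads may be split. Both Tyr and Pmel were clear of Fc in each library, but neither call held in any of the 6 fits, with log2 values from 1.04 to 1.38 for Tyr and from 0.57 to 0.73 for Pmel. The melanosome transporter Slc45a2 stood at 26.6, 25.4 and 21.2 CPM against 36.6, 37.2 and 30.4 CPM (0.51 ± 0.14, adjusted p = 0.0841). Dct, a later enzyme of the pathway, stood at 1803, 2012 and 1973 CPM in Fc and 3530, 2429 and 1801 CPM in VEGF Trap (0.42 ± 0.17, adjusted p = 0.235). There VEGF Trap 1 was high and VEGF Trap 3 lay below all of Fc. Tyrp1 stood at 0.20 ± 0.13. The list summed to 6270 to 7158 CPM in Fc and 7331 to 9704 CPM in VEGF Trap, and the skeletal muscle sum was higher in the same libraries. With that sum as a covariate Tyr stood at 0.86 and Pmel at 0.50 on the log2 scale, neither past the threshold.

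The promoters of the 3 tyrosinase family genes are shown because their enzymes act in one pathway while 1 of them, Tyr, passed the test. Each sequence is the 250 bases before the RefSeq start (GRCm38.p6), read 5′ to 3′ on the strand of the gene. Capitals mark CATGTG, or CACATG where it lies on the other strand, the core to which the melanocyte factor MITF is known to bind.
Tyr: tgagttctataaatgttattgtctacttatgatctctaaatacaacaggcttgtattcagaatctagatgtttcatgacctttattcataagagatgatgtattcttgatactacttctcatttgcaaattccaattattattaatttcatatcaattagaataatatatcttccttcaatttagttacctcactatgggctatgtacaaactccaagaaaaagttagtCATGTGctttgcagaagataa
Tyrp1: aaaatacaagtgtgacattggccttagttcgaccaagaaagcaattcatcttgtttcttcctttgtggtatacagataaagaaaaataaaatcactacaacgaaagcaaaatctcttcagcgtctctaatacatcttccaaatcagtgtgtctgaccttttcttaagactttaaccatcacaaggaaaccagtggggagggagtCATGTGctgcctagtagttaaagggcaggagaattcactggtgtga
Dct: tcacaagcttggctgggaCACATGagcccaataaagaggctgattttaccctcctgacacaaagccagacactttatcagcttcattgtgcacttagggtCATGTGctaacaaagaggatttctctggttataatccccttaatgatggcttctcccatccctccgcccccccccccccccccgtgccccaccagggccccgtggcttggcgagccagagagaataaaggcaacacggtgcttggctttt
Tyr lies at chr7:87493513-87493762 on the minus strand, Tyrp1 at chr4:80833963-80834212 on the plus strand and Dct at chr14:118052247-118052496 on the minus strand. The word began 21 bases before the start in Tyr, 46 in Tyrp1, and 232 and 150 in Dct. Of the 16 listed genes, 10 matched the promoter table, with 14 promoters. CATGTG on either strand was found in 6 of these 14 (42.9%) and in 4025 of all 32851 promoters of the table (12.3%). The related palindrome CACGTG, counted apart, was found in 3 of 14 (21.4%) and in 1978 of all (6.0%). A match is a description of these letters and not of binding.

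Pigment epithelium is also a transporting layer that moves lactate, bicarbonate and chloride between retina and choroid. Of 22 measured transporter genes, Slc4a3 and Slc16a9 rose and 0 fell (background 0.512%), and the median was 0.17. Slc16a9, a monocarboxylate transporter family member, stood at 53.0, 48.1 and 50.0 CPM in Fc and at 121, 85.2 and 77.4 CPM in VEGF Trap (log2 0.91 ± 0.16, adjusted p = 0.0263, edgeR). It passed without any one of the VEGF Trap libraries and ended without any one of the Fc libraries. The anion exchanger Slc4a3 stood at 17.8, 16.8 and 12.6 CPM against 40.7, 29.0 and 23.0 CPM (0.99 ± 0.22, adjusted p = 0.046) and held in 0 fits. The bicarbonate cotransporter Slc4a4 stood at 57.7, 50.4 and 62.3 CPM against 96.0, 81.3 and 80.7 CPM (0.60 ± 0.15, adjusted p = 0.0689). VEGF Trap 1 was the highest library for all 3 genes. Of 15 pigment epithelium markers 0 passed (median 0.09; 1 higher at an unadjusted p below 0.05, 0 by DESeq2), and Rpe65 was highest at 0.46 ± 0.18, with 130, 173 and 202 CPM in Fc and 184, 252 and 259 CPM in VEGF Trap, which overlap.

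**Figure D4:**
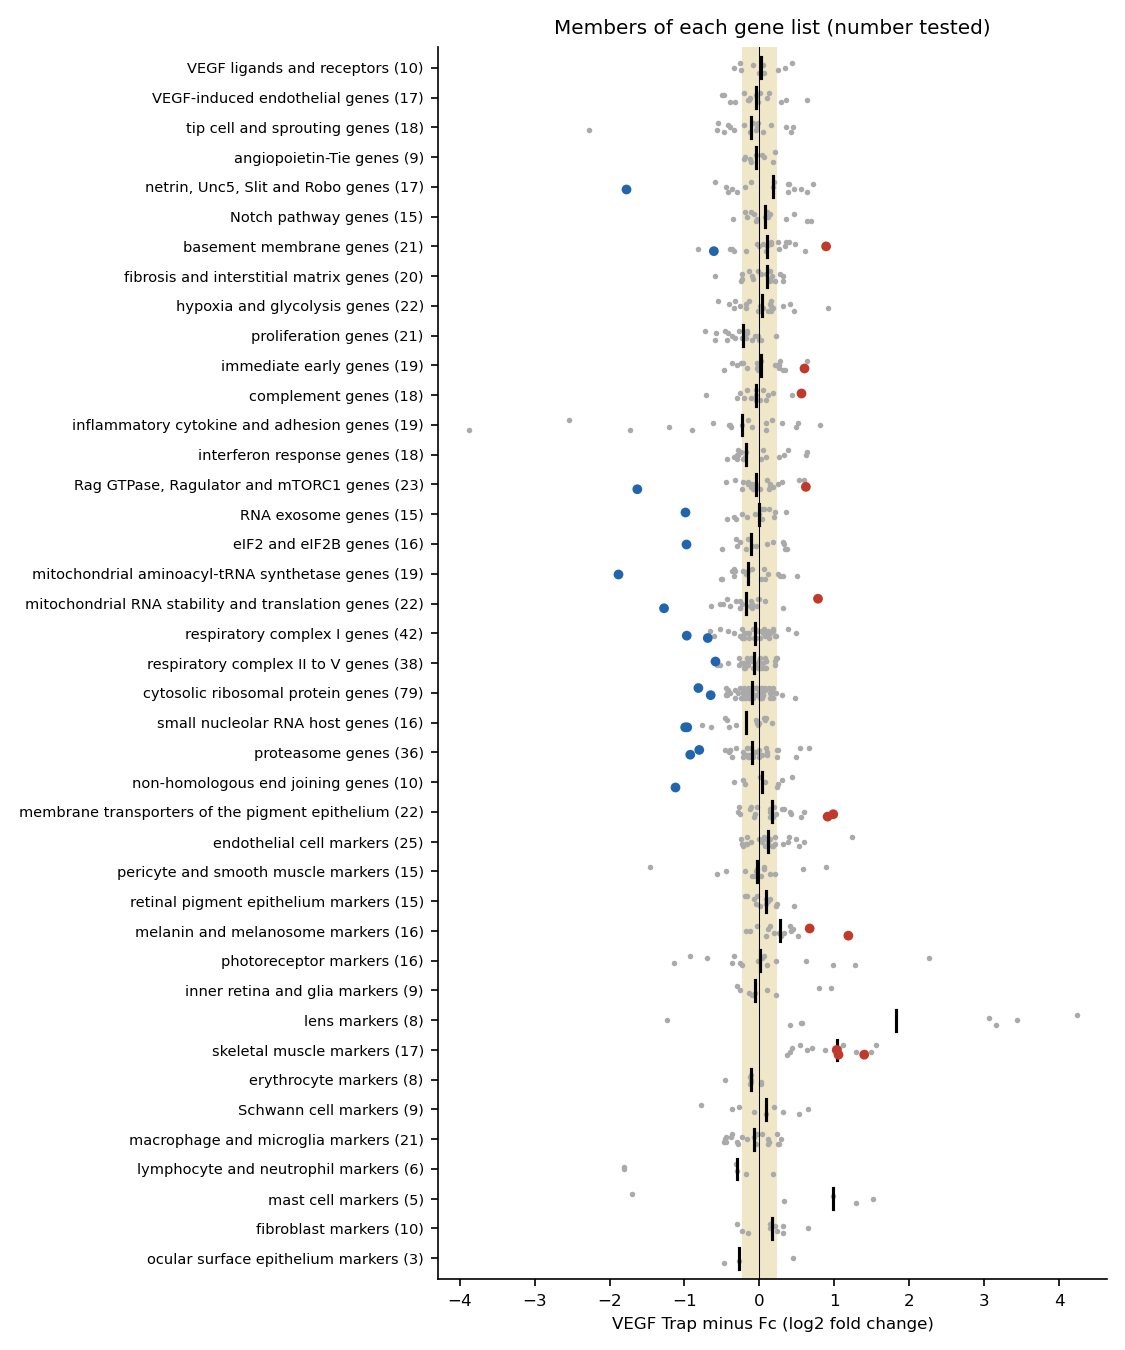
Each row is a gene list with the number of members tested, each point the log2 fold change of one member, filled red or blue where it passed the test, and each black bar the median of the list. The shaded band spans the middle 50% of all genes tested, and most medians lie inside it, apart from skeletal muscle at 1.04, lens at 1.82 and a few others.

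Of 17 measured skeletal muscle markers, 3 rose and 14 did not pass (background 0.512%). All 17 were positive (median 1.04), and 11 had an unadjusted p below 0.05 on the higher side (background 7.89%). Acta1, the skeletal actin, stood at 23.2, 21.9 and 26.3 CPM in Fc and at 49.9, 96.6 and 40.5 CPM in VEGF Trap (log2 1.40 ± 0.31, adjusted p = 0.0466, edgeR). The calcium pump Atp2a1 stood at 7.94, 6.70 and 11.8 CPM against 16.3, 20.2 and 18.6 CPM (1.06 ± 0.23, adjusted p = 0.0456), and the fast troponin Tnnt3 at 54.6, 40.1 and 60.8 CPM against 102, 136 and 78.7 CPM (1.03 ± 0.23, adjusted p = 0.0468). VEGF Trap 2 was the highest library in each of the 3. Without Fc 1, Fc 2, VEGF Trap 2 or VEGF Trap 3 none of the list passed, without Fc 3 or VEGF Trap 1 a single gene did, and with library totals or the correction for GC content of the transcript none did. DESeq2 called 8 of them, and 10 passed without the filter. Acta1 moved to 0.93 without VEGF Trap 2. Atp2a1 shares its 3 prime end with Rabep2 on the other strand, at 0.84 ± 0.21 (adjusted p = 0.0622). Markers of the remaining cell types gave 0 calls by edgeR. Their medians were -0.03 for pericytes and smooth muscle (15 genes), 0.17 for fibroblasts (10), 0.09 for Schwann cells (9), -0.11 for erythrocytes (8), 0.01 for photoreceptors (16), -0.06 for inner retina and glia (9), 0.98 for mast cells (5) and -0.27 for the ocular surface (3). At an unadjusted p below 0.05, 3 pericyte markers were lower (background 7.49%) and 3 fibroblast markers higher (background 7.89%). DESeq2 called 2 lower pericyte markers and 1 higher fibroblast marker. The lens list had a median of 1.82 and its highest sum in VEGF Trap 1, where Crygd stood at 8.87 CPM against 0 to 2.5 CPM in the other 5 libraries.

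**Figure D5:**
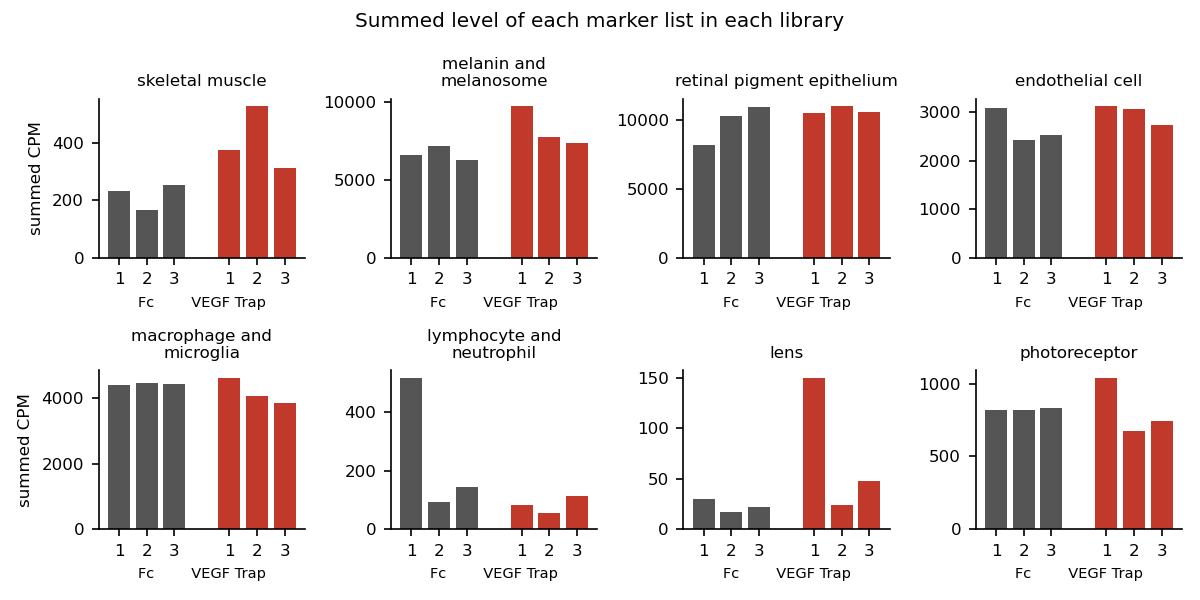
Bars give the summed CPM of the tested members of 8 marker lists in each of the 6 libraries, on axes that start at 0. The skeletal muscle and melanin sums do not overlap between groups, while the neutrophil sum is high in Fc 1 alone and the lens sum in VEGF Trap 1 alone.

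The lists of immune genes gave few calls. Of the 18 complement genes of the list C4b rose and 0 fell (median -0.04, background 0.512% in each direction). Outside the lists, calls of immune genes went both ways. C1rb, whose copy C1ra is on the complement list, fell by 0.92 and Tapbp rose, as given above. The receptor gene Tlr4, named after its values were seen, was called lower. It held in 0 of the 6 fits (log2 -1.27 to -0.93). C4b, a component of the classical pathway, stood at 61.6, 63.8 and 58.6 CPM in Fc and 94.8, 94.5 and 80.7 CPM in VEGF Trap (log2 0.56 ± 0.12, adjusted p = 0.0402, edgeR). It held in 0 of the 6 fits and lost its call with library totals, and its near-identical copy C4a stood at 0.44 ± 0.21. Of 21 macrophage and microglia markers 0 passed (median -0.08). At an unadjusted p below 0.05, 2 were higher and 4 lower (background 7.89% and 7.49%), and DESeq2 called 1 lower. The pan-macrophage marker Adgre1 stood at 35, 23.8 and 28.8 CPM against 33.2, 34.4 and 36.7 CPM, which overlap. The Fc receptor Fcgr3 was the nearest to a call, at 240, 191 and 222 CPM against 186, 153 and 135 CPM (-0.46 ± 0.13, adjusted p = 0.0921). Osteopontin, Spp1, the most abundant cytokine of its list, stood at 2904, 3176 and 3499 CPM in Fc and 3980, 4509 and 5146 CPM in VEGF Trap (0.51 ± 0.12, adjusted p = 0.0593), wholly above Fc.

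The high neutrophil and cytokine values of Fc came mostly from Fc 1. S100a8, a neutrophil calcium-binding protein, stood at 296 CPM in Fc 1, at 43.5 and 67.1 CPM in Fc 2 and 3, and at 34.2, 26.8 and 55.9 CPM in VEGF Trap. The neutrophil chemokine Cxcl2 stood at 24.2 CPM in Fc 1, at 0.509 and 1.6 CPM in Fc 2 and 3, and at 0.418 to 0.832 CPM in VEGF Trap. Interleukin 1 beta, Il1b, stood at 12.5, 3.73 and 4.43 CPM against 1.66, 1.11 and 3.74 CPM. Their fitted log2 fold changes of -1.81 ± 0.50, -3.88 ± 1.08 and -1.73 ± 0.51 did not pass (adjusted p = 0.0852, 0.0855 and 0.103, edgeR). In each, Fc 2 and 3 lay nearer to VEGF Trap than to Fc 1. For S100a8 and Il1b, however, Fc 2 and 3 both stood above VEGF Trap 1 and 2. Fc 3 stood above each VEGF Trap library for S100a8, Cxcl2 and Il1b. Of 19 cytokine and adhesion genes 0 passed by edgeR. At an unadjusted p below 0.05, 2 were higher and 4 lower (background 7.89% and 7.49%), and DESeq2 called 1 higher. Of 18 interferon response genes 0 passed by edgeR, 1 was higher and 1 lower at the unadjusted threshold, and DESeq2 called 1 higher.

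Genes of the proliferation list were mostly on the lower side without a call. Outside the list, the mitotic gene Cenpe, named after its values were seen, was called lower. It held in 0 of the 6 fits (log2 -0.69 to -0.60). Of 21 proliferation genes 0 passed by edgeR and 3 were lower at an unadjusted p below 0.05 (background 7.49%). DESeq2 called 2 lower and limma-voom 1. In the list 19 were negative, and the median was -0.22. The survival and division factor Birc5 stood at 197, 184 and 182 CPM in Fc and 102, 113 and 164 CPM in VEGF Trap (log2 -0.58 ± 0.16, adjusted p = 0.0834, edgeR). The list summed to 649 to 683 CPM in Fc and 439 to 638 CPM in VEGF Trap, which do not overlap, and 19% of its members lay wholly below Fc (background 10.5%). Of 22 hypoxia and glycolysis genes 0 passed (median 0.03; 1 higher and 1 lower at the unadjusted threshold). Of 19 immediate early genes Jund rose and 0 fell (background 0.512% in each direction). Its level went from 208, 195 and 190 CPM to 324, 271 and 299 CPM (0.59 ± 0.11, adjusted p = 0.0322, edgeR). Jund, a subunit of AP-1, held in 1 of the 6 fits, that without VEGF Trap 2. The correction for GC content of the transcript ended its call at a log2 value of 0.37.

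The ABTAA libraries share the Fc controls with this comparison, so their levels are set beside it without a test. Mean levels in ABTAA were 40.9 ± 15 CPM for Rraga, 151 ± 26.4 CPM for Pomp, 22.6 ± 7.18 CPM for Lrpprc and 104 ± 10.5 CPM for Rps23 (SD, n = 3), near those of VEGF Trap. For Slc16a9 the ABTAA mean was 60.3 ± 8.25 CPM, against 50.4 ± 2.45 in Fc and 94.5 ± 23.2 in VEGF Trap, and for Foxred1 it was 18.9 ± 2.37 CPM, against 21.8 ± 3.17 and 11.1 ± 1.24. For Eng it was 454 ± 42.8 CPM, against 263 ± 37.3 in Fc and 369 ± 21.2 in VEGF Trap. The melanin and melanosome markers summed to 8485, 7725 and 7423 CPM in ABTAA, above each Fc library. So did the skeletal muscle markers, at 325, 672 and 551 CPM, so neither rise was particular to VEGF Trap.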

How the data were processed

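Each deposited table lists raw counts, whole numbers without normalization, against gene symbols. The authors used Bowtie2 and edgeR with the mm10 build, per the submitters' processing notes. The sources used here give no version, annotation, counting tool or strand setting. After filterByExpr and TMM scaling, the quasi-likelihood test of edgeR 4.0.16 (R 4.3.3) was run in 1 model of the 9 libraries with 6 residual degrees of freedom, adjusted by Benjamini-Hochberg over 14054 genes at 0.05. CPM are TMM-scaled counts, and SE was derived from each fold change and its F statistic. The scripts were tested on simulated data with known changes. Replicate pairs differed by 9.81 to 20.4 chi-square per degree of freedom, so no pair agreed within counting noise. A common divisor above 1 was shared by the counts of 2188 tested genes (15.6%), 37 of them called. Alternatives were DESeq2 1.42.0, limma-voom (limma 3.58.1), other scalings and filters, the 6 libraries alone, a replicate block, divided counts, a muscle covariate, a fold of 1.2, each library left out, and, added after seeing the data, 2 corrections for GC content.

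The 41 gene lists, the members and the rules were chosen with earlier results of these data known. Named genes were the 15 largest changes each way with at least 10 CPM, called list members, the 10 most abundant called genes, calls that held without each library, and a fixed set. Highest and lowest list members were added, as were other list members chosen after their values were seen, and some genes that the rule names are not reported here. Positions came from GENCODE M21 on GRCm38 (13508 symbols matched directly, 430 by an older symbol, 116 not). The last 200 bases were searched with BLAST+ 2.17.0; 100 matching bases at 95% identity made a copy.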

Additional observations from a re-analysis of the deposited data

How the results depend on the processing

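Against 144 called genes (72 higher, 72 lower), DESeq2 gave 671 (360 and 311), limma-voom 242 (131 and 111), library totals 221 (39 and 182), no filter 616 (312 and 304), counts divided by their common divisor 249 (129 and 120), the muscle covariate 1 (1 and 0) and a fold of 1.2 gave 2 (0 and 2). The correction for GC content of the transcript gave 40 higher. Deviations of same-numbered libraries correlated weakly (0.013 to 0.026, against -0.028 to 0.013 for other pairs), which cannot tell whether the replicate numbers mark pairs. The fit with a replicate block gave 300 (168 and 132). Leaving out 1 library gave 7 to 62 genes, 0 to 38 higher and 7 to 28 lower. RLE scaling, 10 counts in 6 libraries, the 6 libraries alone and the GC correction on the 3 prime end stayed within 1.5 times of 144. The lower counts without a library come with fewer samples; the cause of the other shifts was not tested.

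No called gene that the text names changed sign under any alternative. Genes near 0 did. With the muscle covariate Apln was 0.135, Esm1 0.148 and Tek -0.115. With library totals Flt1 was -0.0177, Pecam1 -0.00859 and Tek -0.0148. Vegfa was 0.00205 with the replicate block and 0.0306 with the GC correction on the 3 prime end. Without single libraries the log2 values ran from -0.141 to 0.0605 for Apln, -0.293 to 0.0171 for Cdh5, -0.269 to 0.0173 for Esm1, -0.0249 to 0.202 for Flt1, -0.215 to 0.037 for Nrp1, -0.0822 to 0.2996 for Tek and -0.111 to 0.144 for Vegfa.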
